A study of Mus musculus with 6 samples.

Results

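The smooth muscle actin and contractile genes are 10 genes of the 20475 in the deposited table: Acta2, Actg2, Tagln, Tagln2, Cnn1, Cnn2, Myl9, Tpm1, Tpm2 and Cald1. They were taken by symbol, and all 10 symbols occur in the table. The study sequenced mRNA of NIH3T3, an immortalised line of mouse embryonic fibroblasts, 48 h after treatment at passage 5, in 6 libraries. For 2 libraries the cells had received extracellular vesicles (EVs, membrane particles that cells release) of the human triple-negative breast cancer line MDA-MB-231. A further 2 had received EVs of the human breast epithelial line MCF10A, which is not tumorigenic, and 2 had received phosphate-buffered saline (PBS) and no EVs. All 6 libraries are of 1 mouse line exposed to material from human cells or to buffer. Whether the replicates came from separate cultures is not in the labels, so the spread behind each p-value is that of these samples and may be technical.

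Smooth muscle alpha-actin is the usual marker of a fibroblast that has become a myofibroblast, the contractile cell of wounds and of the stroma around tumours. Contraction needs actin filaments, non-muscle or smooth muscle myosin switched on through its regulatory light chain, and side-binding proteins (tropomyosins, calponins, transgelins and caldesmon) that set how filaments are bundled and when myosin can act. Many of these genes are targets of serum response factor (SRF), which binds CArG boxes (CC, a run of A or T, GG) and is activated by its coactivators when free actin monomers are used up.

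CArG boxes stood upstream of the annotated start of 3 of the 8 members with an entry in the RefSeq promoter table (GRCm38.p6), counting boxes with 1 mismatch in the A/T core, and these 3 are printed because they carry the boxes. The 250 bases before the start are given, with boxes in capitals. The sequences are of the Acta2 promoter on chr19:34255374-34255623 (minus strand), the Myl9 promoter on chr2:156775214-156775463 (plus strand) and the Cnn2 promoter on chr10:79988350-79988599 (plus strand).
Acta2: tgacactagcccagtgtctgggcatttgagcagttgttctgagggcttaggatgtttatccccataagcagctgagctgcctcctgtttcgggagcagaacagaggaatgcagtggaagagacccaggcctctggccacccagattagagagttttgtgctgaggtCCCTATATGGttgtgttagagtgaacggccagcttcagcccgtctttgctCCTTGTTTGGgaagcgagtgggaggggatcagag
Myl9: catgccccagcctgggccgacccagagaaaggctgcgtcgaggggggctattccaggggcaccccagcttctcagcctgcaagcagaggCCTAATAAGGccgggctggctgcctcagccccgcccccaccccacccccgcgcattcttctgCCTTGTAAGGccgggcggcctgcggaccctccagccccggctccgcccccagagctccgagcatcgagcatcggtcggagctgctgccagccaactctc
Cnn2: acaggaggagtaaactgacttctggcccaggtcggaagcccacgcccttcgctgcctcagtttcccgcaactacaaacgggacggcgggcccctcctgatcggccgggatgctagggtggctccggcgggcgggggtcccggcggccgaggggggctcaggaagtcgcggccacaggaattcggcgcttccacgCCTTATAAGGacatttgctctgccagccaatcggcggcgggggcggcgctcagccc
Counting backwards from the start, Cnn2 held an exact box, CCTTATAAGG, at -56 to -47. Myl9 held an exact box, CCTAATAAGG, at -161 to -152 and a box with 1 mismatch, CCTTGTAAGG, at -99 to -90. Both Acta2 boxes had 1 mismatch: CCCTATATGG at -84 to -75 and CCTTGTTTGG at -34 to -25. On both strands, 1.47% of 32851 RefSeq promoters of the same window held an exact box, and 7.24% held a box with 1 mismatch. These shares were counted apart, and the share with either kind was not counted. The MCAT element CATTCC, which TEAD factors bind, was in the Acta2, Tpm1, Tagln2 and Cald1 windows and in 12.6% of all windows, and overlapped no box. A match is a stretch of letters and not a shown binding site, and Tagln and Actg2 had no entry.

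Levels of the members spanned 4 orders of magnitude, and the abundant ones were those that non-muscle cells also use. Values are the deposited normalised reads (reads adjusted by the authors to a common library size), and levels between genes are given per kilobase of annotated exon. Tagln2, the widely expressed transgelin, led in PBS cells with 6945 normalised reads per kb, ahead of the non-muscle calponin Cnn2 with 1878, Tpm1 with 1571 and Cald1 with 1411. Below them in PBS cells came Tpm2 with 699.8 and Acta2 with 683.2 normalised reads per kb. The PBS libraries of Tpm2 and Acta2 overlapped, so that their order was not resolved there.

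With EVs Acta2 stood above Tpm2: 873.9 against 776.2 normalised reads per kb in MDA-MB-231 EV cells and 1086 against 777.3 in MCF10A EV cells. The genes best known from differentiated smooth muscle were far lower, with Tagln at 28.34, Myl9 at 7.352, Cnn1 at 5.332 and Actg2 at 0.648 normalised reads per kb in PBS cells. The exon length covers all annotated isoforms, and is long for Tpm1 (6.485 kb) and Cald1 (12.041 kb), which lowers their place in this order. Counts per gene also do not separate the muscle and non-muscle isoforms of Tpm1, Tpm2 and Cald1.

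**Figure D1:**
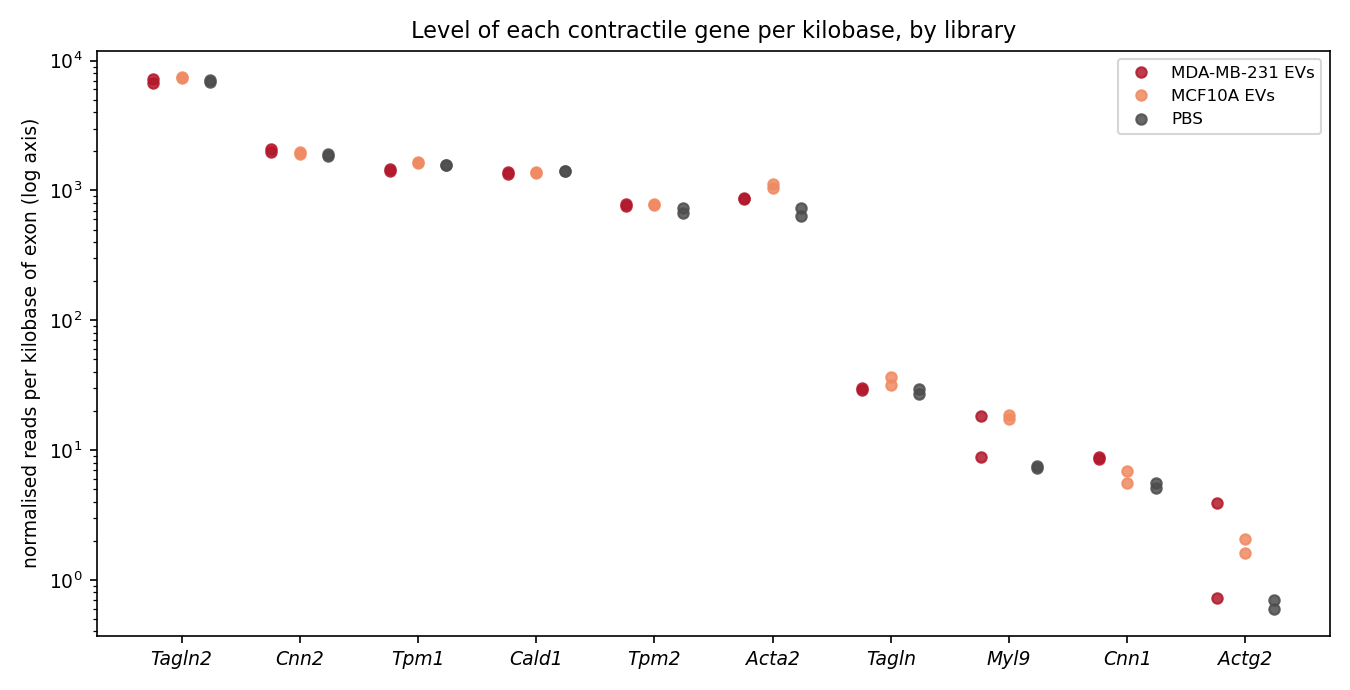
Level of each of the 10 genes in normalised reads per kilobase of annotated exon, on a log axis, with 1 point per library and colours for MDA-MB-231 EVs, MCF10A EVs and PBS. Tagln2 is highest in all 6 libraries and Actg2 lowest, and the treatment groups lie close together beside the distance between genes.

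Acta2, smooth muscle alpha-actin, was the abundant member that changed most, and it was higher after both kinds of EV. It had 1936 and 1903 normalised reads in MDA-MB-231 EV cells, 2467 and 2304 in MCF10A EV cells, and 1606 and 1395 in PBS cells. No 2 groups overlapped: both MCF10A EV libraries were highest, both MDA-MB-231 EV libraries came next and both PBS libraries were lowest. Against PBS, Acta2 rose 1.28-fold with MDA-MB-231 EVs (log2 change 0.36 ± 0.056 SE, limma adjusted p = 0.00012). With MCF10A EVs it rose 1.59-fold against PBS (log2 change 0.67 ± 0.056, limma adjusted p = 5.15e-07). The difference between the EVs was itself past the threshold, with Acta2 1.24-fold lower after MDA-MB-231 EVs than after MCF10A EVs (log2 change -0.31 ± 0.056, limma adjusted p = 0.00118). Without limma's mean-variance trend this difference and the one with MDA-MB-231 EVs against PBS kept their size and did not pass (adjusted p = 0.154 and 0.0572). In these bulk libraries, more cells that express Acta2 and more Acta2 RNA per cell cannot be told apart.

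Acta2 remained a small part of the actin pool. Per kilobase it was 1.41% and 1.44% of all actin reads in MDA-MB-231 EV cells, 1.80% and 1.57% in MCF10A EV cells, and 1.32% and 1.19% in PBS cells. Its share was therefore highest in both MCF10A EV libraries, and no 2 groups overlapped. The share differed by less than the Acta2 level, and the other actins were higher as well. Of 3 other actins tested, Actb, Acta1 and Actg1, 2 rose with MDA-MB-231 EVs and all 3 with MCF10A EVs against PBS. Only 0.326% of the Acta2 transcript's 50-base words also occur in other transcripts, those of Actg1 and actin pseudogenes among them.

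Actg2, the gamma-actin of visceral smooth muscle, was close to undetected. The libraries held 6 and 1 reads in MDA-MB-231 EV cells, 3 and 3 in MCF10A EV cells, and 1 and 1 in PBS cells. Single reads decide these values: the ratio of summed reads against PBS was 3.79 with MDA-MB-231 EVs (exact 95% counting interval 0.722 to 37.4) and 2.88 with MCF10A EVs (0.514 to 29.1). No comparison with PBS was called (limma adjusted p = 0.281 with MDA-MB-231 EVs and 0.30 with MCF10A EVs). Actg2 passed the filter of 1 normalised read in 2 libraries with 1 PBS library below that level.

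The transgelins, actin-bundling proteins of the calponin family, did not pass the test in any of the 3 comparisons on the deposited values. Tagln, also called SM22-alpha, had 57.9 and 59.7 normalised reads in MDA-MB-231 EV cells, 62.5 and 72.4 in MCF10A EV cells, and 58.6 and 54.1 in PBS cells. Its MDA-MB-231 EV and PBS libraries overlapped, and both MCF10A EV libraries lay above all others. Against PBS the log2 change was 0.06 with MDA-MB-231 EVs (95% interval -0.35 to 0.47) and 0.25 with MCF10A EVs (-0.16 to 0.66, limma adjusted p = 0.359).

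Tagln reads carry a second limit. Tagln lies on chromosome 9 opposite to Pcsk7, a proprotein convertase, and to the predicted gene Gm48529, and 58.3% of its 50-base words also occur in their transcripts, read without regard to strand. Nearly all of these are shared with Gm48529 (55.4%), which has no row in the table, and 2.98% with Pcsk7. Per 100 reads of Pcsk7, Tagln had 9.76 and 9.96 reads in MDA-MB-231 EV cells, 9.61 and 10.7 in MCF10A EV cells, and 9.78 and 9.58 in PBS cells. This ratio hardly varied over the 6 libraries. Pcsk7 itself changed little against PBS, as did Tagln (Pcsk7 log2 change 0.035 with MDA-MB-231 EVs and 0.186 with MCF10A EVs). A steady ratio therefore cannot tell the source of the Tagln reads, which was not tested. Since the counted strand is not given in the sources used here, reads of Tagln and of its antisense neighbours cannot be told apart.

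Tagln2 had 15144 and 13967 normalised reads in MDA-MB-231 EV cells, 15255 and 15492 in MCF10A EV cells, and 14672 and 14247 in PBS cells. The 2 MDA-MB-231 EV libraries enclosed both PBS libraries, whereas the MCF10A EV libraries lay above them. The log2 change against PBS was 0.01 with MDA-MB-231 EVs (95% interval -0.07 to 0.08) and 0.09 with MCF10A EVs (0.02 to 0.16, limma adjusted p = 0.0644). The second of these passed in 6 of 12 alternatives, among them quantile scaling (adjusted p = 0.0069), library totals (0.00843) and edgeR (0.0321), and the first passed with quantile scaling (0.0259). Per kilobase Tagln2 exceeded Tagln by a factor of 204 to 251 over the libraries.

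The calponins bind actin filaments and slow myosin. Cnn1, the smooth muscle calponin, had 24.4 and 23.5 normalised reads in MDA-MB-231 EV cells, 15.1 and 18.8 in MCF10A EV cells, and 15.2 and 14.0 in PBS cells. Both MDA-MB-231 EV libraries were above all others, while the MCF10A EV and PBS libraries overlapped. The log2 change of Cnn1 with MDA-MB-231 EVs was 0.68 ± 0.304 SE against PBS (95% interval 0.03 to 1.33, limma adjusted p = 0.102), which did not pass. It rests on 46 reads against 29, and it passed with quantile scaling (adjusted p = 0.0482) and without limma's trend (0.0294).

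Cnn2, the calponin of non-muscle cells, had 5106 and 4902 normalised reads in MDA-MB-231 EV cells, 4835 and 4734 in MCF10A EV cells, and 4734 and 4506 in PBS cells. The MDA-MB-231 EV libraries were the highest, and the MCF10A EV and PBS libraries met at one value. Cnn2 rose by 8.31% with MDA-MB-231 EVs against PBS (log2 change 0.12 ± 0.034 SE, limma adjusted p = 0.0159), and its log2 change of 0.05 with MCF10A EVs did not pass (limma adjusted p = 0.298). The call is not firm: without PBS replicate 2 the adjusted p was 0.194, without MDA-MB-231 EV replicate 1 it was 0.12, and DESeq2 gave 0.0525. Cnn1 was 0.237% and 0.232% of calponin reads per kilobase in MDA-MB-231 EV cells, 0.152% and 0.189% in MCF10A EV cells, and 0.155% and 0.146% in PBS cells, so that Cnn2 and Cnn3 made up nearly all of the calponin RNA in each group.

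Cald1, caldesmon, blocks myosin from actin until calcium signals release it. It had 16758 and 16087 normalised reads in MDA-MB-231 EV cells, 16647 and 16553 in MCF10A EV cells, and 16885 and 17097 in PBS cells. Both PBS libraries were above all EV libraries, by little. The log2 change against PBS was -0.05 with MDA-MB-231 EVs (95% interval -0.11 to 0.01) and -0.03 with MCF10A EVs (-0.09 to 0.03), and neither passed (limma adjusted p = 0.191 with MDA-MB-231 EVs and 0.401 with MCF10A EVs). Both intervals lie below the smallest bound of the Acta2 rises against PBS (0.24).

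Myl9 encodes the regulatory light chain through which phosphorylation switches on smooth muscle and non-muscle myosin. It had 10.2 and 21.1 normalised reads in MDA-MB-231 EV cells, 21.5 and 20.3 in MCF10A EV cells, and 8.69 and 8.40 in PBS cells. Both MCF10A EV libraries were above both PBS libraries, and the MDA-MB-231 EV libraries lay apart, one near PBS and one among the MCF10A EV values. With MCF10A EVs Myl9 rose 2.29-fold against PBS on the log2(value + 1) scale, which understates changes of low genes (log2 change 1.197 ± 0.374 SE, limma adjusted p = 0.0236). This was the largest called fold change among the 10 genes.

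The Myl9 call rests on 44 reads with MCF10A EVs against 17 with PBS, a ratio of 2.48 in summed reads per library total (exact 95% counting interval 1.39 to 4.63). Leaving out any 1 library of either group ended it (limma adjusted p of 0.0847 to 0.112). With MDA-MB-231 EVs the log2 change was 0.72 ± 0.374 (limma adjusted p = 0.158). Without MDA-MB-231 EV replicate 1 that change was 1.21, with a limma adjusted p of 0.0354, so that a single library decides on which side of the threshold it falls. The related light chain genes Myl12a and Myl12b were far more abundant, with 2747 and 1614 normalised reads per kb in PBS cells against 7.352 for Myl9.

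The 2 tropomyosins among the members moved apart with MDA-MB-231 EVs. Tropomyosins lie along the actin filament and decide which myosins and severing proteins reach it. Tpm1 had 9485 and 9202 normalised reads in MDA-MB-231 EV cells, 10684 and 10506 in MCF10A EV cells, and 10146 and 10235 in PBS cells. The MDA-MB-231 EV libraries were lowest and the MCF10A EV libraries highest, with no overlap between groups. Tpm1 fell by 8.32% with MDA-MB-231 EVs against PBS (log2 change -0.13 ± 0.028 SE, limma adjusted p = 0.00229) and was 11.8% lower than with MCF10A EVs (log2 change -0.18 ± 0.028, limma adjusted p = 0.00034). With MCF10A EVs its log2 change against PBS of 0.06 did not pass (limma adjusted p = 0.147). The call against PBS depends on the scaling: the adjusted p was 0.0875 with quantile scaling and 0.0663 with scaling to library totals, both in the same direction.

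Tpm2 had 2211 and 2304 normalised reads in MDA-MB-231 EV cells, 2274 and 2248 in MCF10A EV cells, and 2135 and 1936 in PBS cells. The 2 EV groups overlapped each other and lay above both PBS libraries. Tpm2 rose 1.11-fold with MDA-MB-231 EVs (log2 change 0.15 ± 0.045 SE, limma adjusted p = 0.0171) and 1.11-fold with MCF10A EVs (log2 change 0.15 ± 0.045, limma adjusted p = 0.0176), both against PBS. The difference between the EVs had a 95% interval of -0.10 to 0.10 on the log2 scale. PBS replicate 2 carried both Tpm2 calls: without it the limma adjusted p was 0.249 with MDA-MB-231 EVs and 0.25 with MCF10A EVs. Without MDA-MB-231 EV replicate 2 it was 0.116, without MCF10A EV replicate 1 or 2 it was 0.104 or 0.0745, and DESeq2 gave 0.0729 with MDA-MB-231 EVs and 0.0802 with MCF10A EVs. Per kilobase, Tpm2 took 7.21% and 7.72% of tropomyosin reads in MDA-MB-231 EV cells, 6.93% and 6.92% in MCF10A EV cells, and 6.75% and 6.10% in PBS cells. Tpm1 took 13.9% and 13.8% in MDA-MB-231 EV cells, 14.6% and 14.5% in MCF10A EV cells, and 14.4% and 14.5% in PBS cells.

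**Figure D2:**
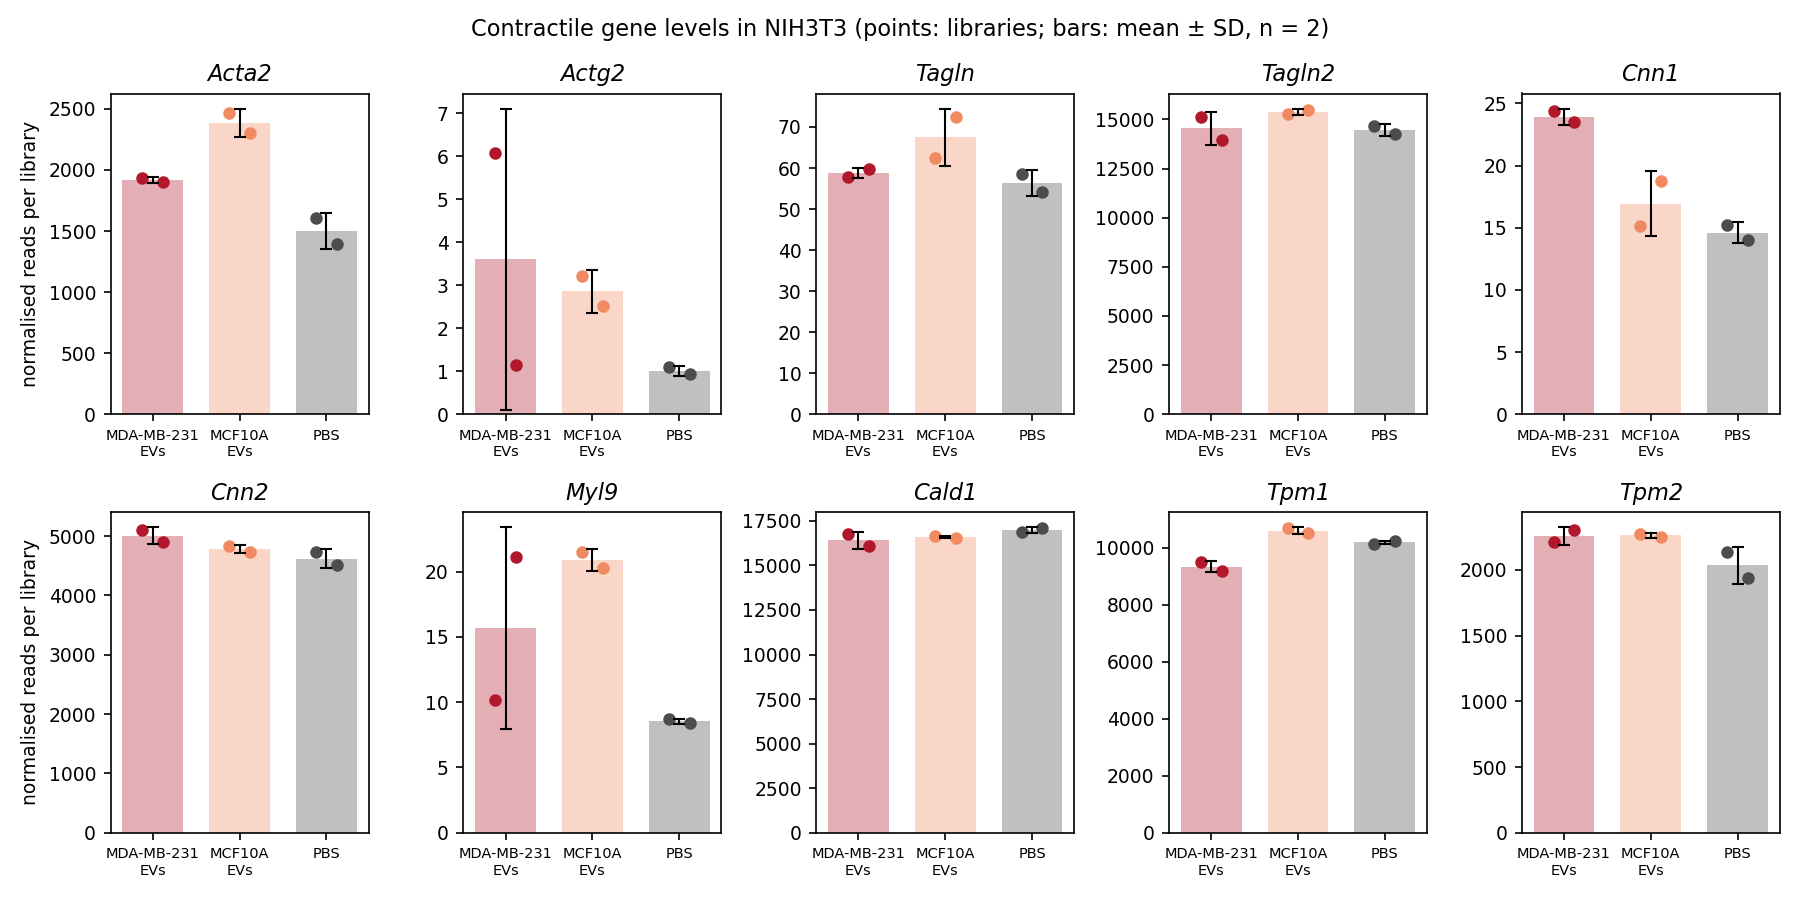
Normalised reads of each of the 10 genes in every library, 1 panel per gene with its own axis from 0, with MDA-MB-231 EVs on the left, MCF10A EVs in the middle and PBS on the right, points for libraries and bars for the mean ± SD (n = 2). Acta2 runs from 1395 in a PBS library to 2467 in an MCF10A EV library, Tpm1 is lowest in both MDA-MB-231 EV libraries, and Myl9 splits the 2 MDA-MB-231 EV libraries (10.2 and 21.1).

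Against PBS, 4 of the 10 genes were called with MDA-MB-231 EVs, 3 higher (Acta2, Cnn2, Tpm2) and 1 lower (Tpm1). The background was 34.8% of 15025 genes called, 17.9% higher and 16.9% lower, so that a share of 4 in 10 is close to that of all genes. With MCF10A EVs 3 of 10 were called against PBS, all higher (Acta2, Myl9, Tpm2), beside 31.7% of all genes, 17.1% higher and 14.6% lower. Between the EVs 2 of 10 were called, both lower with MDA-MB-231 EVs (Acta2, Tpm1), beside 16.9% of all genes, 6.84% higher and 10.1% lower. In each comparison the share of contractile genes called was thus near that of all genes.

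The members' median log2 change was 0.13 with MDA-MB-231 EVs and 0.18 with MCF10A EVs against PBS, beside 0.01 and 0 for all genes. Between the EVs it was -0.05, beside -0.001 for all genes. Members with few reads raised both medians against PBS. The largest changes with MDA-MB-231 EVs were those of Actg2, Myl9 and Cnn1 (0.953, 0.722 and 0.678). With MCF10A EVs they were those of Myl9 and Actg2 (1.197 and 0.938). Groups did not overlap for 8 of 10 members with MDA-MB-231 EVs against PBS, 8 of 10 with MCF10A EVs against PBS and 6 of 10 between the EVs, where 65.9%, 64.2% and 56% of all genes did not overlap. Both comparisons with PBS share the PBS libraries, so their agreement for Acta2 and Tpm2 is not independent. Of the called changes, 1 was over 2-fold (Myl9 with MCF10A EVs), and those of Cnn2, Tpm1 and Tpm2 were between 8.31% and 11.8% in size.

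**Figure D3:**
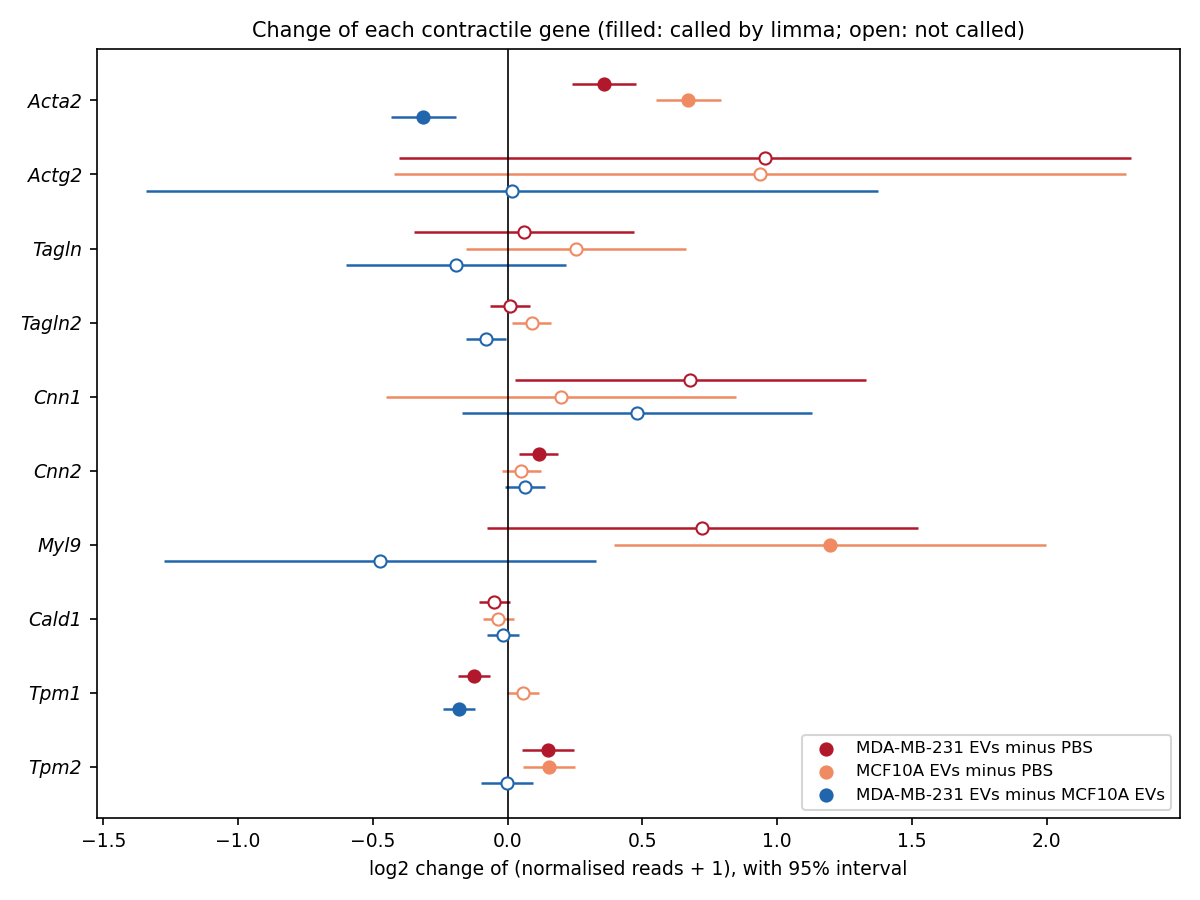
Log2 change of each of the 10 genes with its 95% interval from limma, for MDA-MB-231 EVs minus PBS, MCF10A EVs minus PBS and MDA-MB-231 EVs minus MCF10A EVs, with filled points for genes called at an adjusted p under 0.05. Intervals are narrow for Acta2, Cnn2, Tpm1, Tpm2, Tagln2 and Cald1 and wide for Actg2, Myl9 and Cnn1, whose libraries hold few reads.

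The rest of the contractile machinery did not move in 1 direction. Beside the list counts below, 17.9% of all genes rose and 16.9% fell with MDA-MB-231 EVs against PBS. With MCF10A EVs 17.1% rose and 14.6% fell against PBS. Between the EVs 6.84% were higher and 10.1% lower with MDA-MB-231 EVs. Among the non-muscle and smooth muscle myosin genes, 3 of 7 tested rose and 1 fell with MDA-MB-231 EVs, and 3 rose and 0 fell with MCF10A EVs, both against PBS. The genes that rose were the same in both: the non-muscle myosin heavy chains Myh9 and Myh10 and the light chain kinase Mylk. Myh10 was 1.30-fold higher with MDA-MB-231 EVs and 1.22-fold higher with MCF10A EVs. Among the other tropomyosins, calponins and transgelins, 1 of 9 rose (Tpm3) and 1 fell (Tpm4) with MDA-MB-231 EVs, and 2 rose (Tpm3 and Lmod1) with MCF10A EVs. Scaling to library totals gave 5 higher and 0 lower with MDA-MB-231 EVs.

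Genes of contraction control were called lower or not called. Of 13 tested genes for RhoA and myosin phosphatase, which set light chain phosphorylation, 6 fell and 0 rose with MDA-MB-231 EVs, and 4 fell and 0 rose with MCF10A EVs, both against PBS. Of all genes 16.9% fell with MDA-MB-231 EVs and 14.6% with MCF10A EVs, and the median log2 change of the 13 was -0.02 with MDA-MB-231 EVs and -0.07 with MCF10A EVs. Rhoa, Rock1 and Rock2 were not called against PBS with either EV (log2 changes 0.018, -0.016 and -0.012 with MDA-MB-231 EVs). The phosphatase genes Ppp1r12a and Ppp1cb were among those that fell with MDA-MB-231 EVs (log2 changes -0.149 and -0.159). Ppp1cb also fell with MCF10A EVs (-0.213). The falls thus lay in both the RhoA and the phosphatase part of the list. Rhob, a small GTPase, was 1.40-fold lower with MDA-MB-231 EVs and 1.33-fold lower with MCF10A EVs. Limk1, the kinase that blocks the actin-severing protein cofilin, was 1.43-fold lower with MDA-MB-231 EVs and 1.24-fold lower with MCF10A EVs. Scaling to library totals gave 3 higher and 5 lower with MDA-MB-231 EVs, and quantile scaling gave 1 higher and 6 lower.

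Genes of actin bundles and focal adhesions were mixed, with 4 of 22 higher and 5 lower with MDA-MB-231 EVs and 8 higher and 3 lower with MCF10A EVs against PBS. Scaling to library totals turned the first of these to 10 higher and 4 lower. Between the EVs 1 was higher and 8 lower with MDA-MB-231 EVs. Tes, a focal adhesion protein, was 1.415-fold lower with MDA-MB-231 EVs and 1.195-fold lower with MCF10A EVs, both against PBS. Csrp1, a LIM protein of smooth muscle and fibroblasts, fell 1.31-fold with MDA-MB-231 EVs and was not called with MCF10A EVs, and it was 1.30-fold lower with MDA-MB-231 EVs than with MCF10A EVs.

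The SRF genes showed no common direction either. Of 7 tested, 2 rose (Mkl1 and Mkl2, the actin-sensing coactivators) and 1 fell (Elk3, a repressing cofactor) with MDA-MB-231 EVs, and 1 rose (Mkl1) and 2 fell (Elk3 and Elk4) with MCF10A EVs, both against PBS. Srf itself was not called against PBS and was lower with MDA-MB-231 EVs than with MCF10A EVs (limma adjusted p = 0.0228). Under quantile scaling and under library totals 0 of the 7 were lower between the EVs, so the Srf call ended there. Myocd, the coactivator of smooth muscle cells, was at 0 in both MDA-MB-231 EV libraries, 1.06 and 0 in MCF10A EV cells, and 1.14 and 3.78 normalised reads in PBS cells.

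Matrix and surface genes of the myofibroblast were called lower more often than higher against PBS. Of 17 tested, 2 rose and 8 fell with MDA-MB-231 EVs, and 4 rose and 7 fell with MCF10A EVs. Among all genes 16.9% fell with MDA-MB-231 EVs and 14.6% with MCF10A EVs. The median log2 change of the 17 was -0.141 with MDA-MB-231 EVs and -0.144 with MCF10A EVs. Quantile scaling gave 4 higher and 6 lower with MDA-MB-231 EVs. Tnc, tenascin C, was 2.35-fold lower with MDA-MB-231 EVs and 1.28-fold lower with MCF10A EVs. Thbs1, the matrix glycoprotein thrombospondin 1, was 2.02-fold lower with MDA-MB-231 EVs and 1.57-fold lower with MCF10A EVs. Col3a1, a fibrillar collagen gene, went the opposite way, 1.37-fold higher with MDA-MB-231 EVs and 1.735-fold higher with MCF10A EVs (limma adjusted p = 1.13e-08 and 8.94e-11). The collagen genes Col5a1 and Col1a2 were 1.28-fold and 1.10-fold lower with MDA-MB-231 EVs, and 1.10-fold and 1.19-fold lower with MCF10A EVs.

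**Figure D4:**
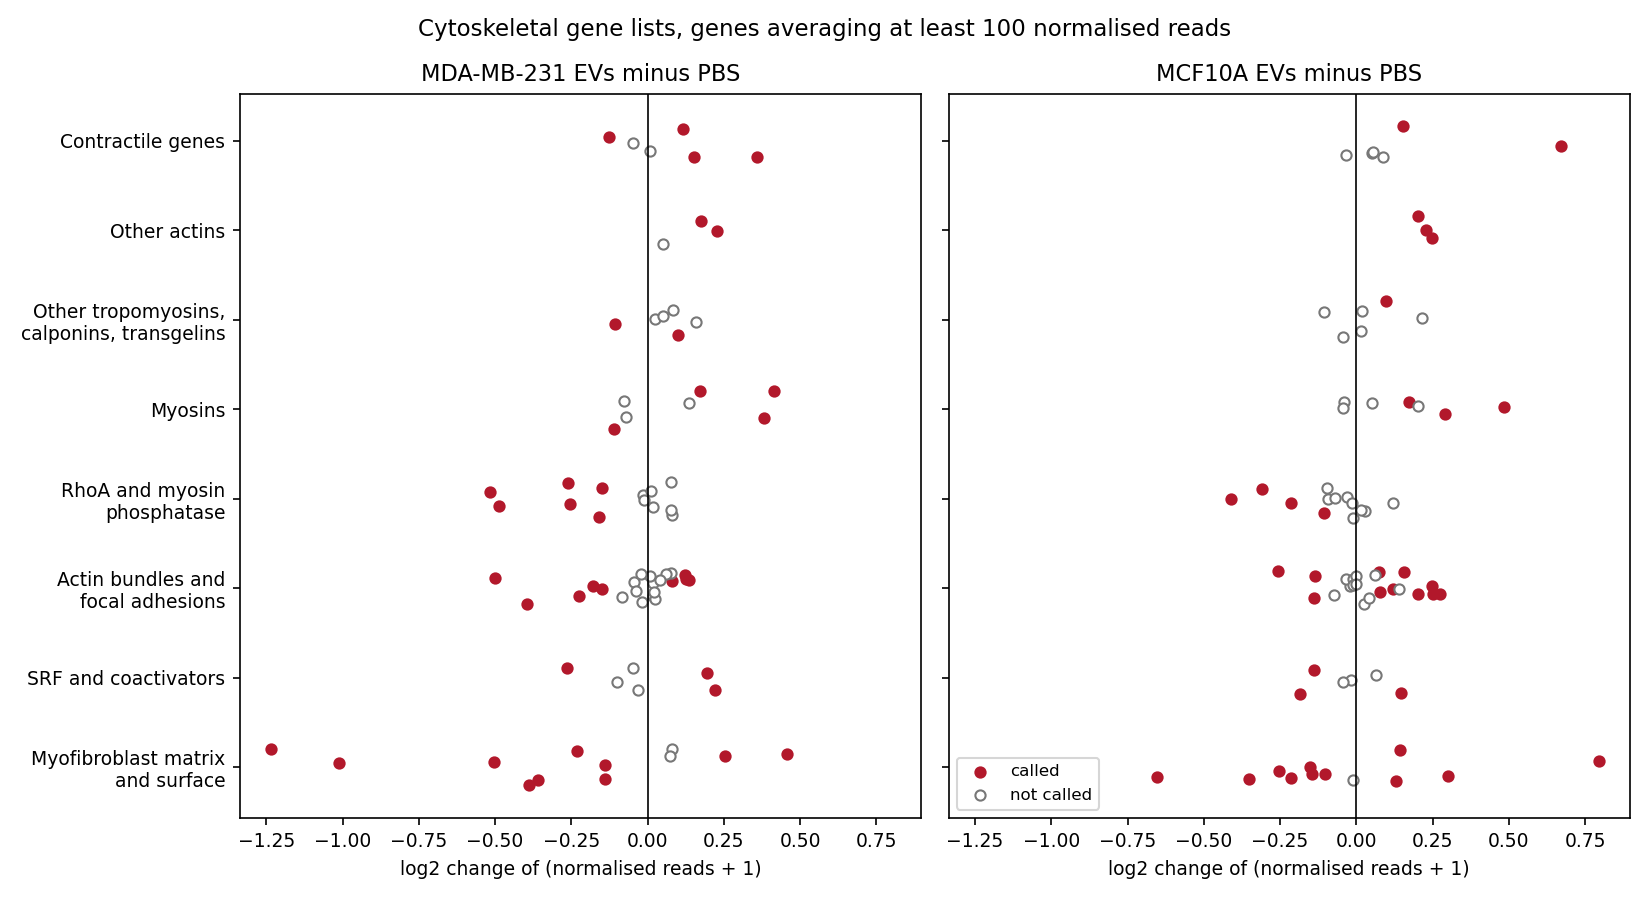
Log2 change of each gene of the contractile genes and 7 related lists, for genes with a mean of at least 100 normalised reads, with MDA-MB-231 EVs minus PBS on the left and MCF10A EVs minus PBS on the right, and filled points for genes called at an adjusted p under 0.05. The matrix genes reach the lowest values against PBS (Tnc, 2.35-fold lower with MDA-MB-231 EVs), and in both comparisons with PBS Acta2 stands above the other contractile genes drawn.

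Marker genes were read beside these results. The summed level of 10 fibroblast markers was 347921 and 339198 normalised reads in MDA-MB-231 EV cells, 357465 and 347951 in MCF10A EV cells, and 416808 and 417110 in PBS cells. Of these 10, 6 fell and 1 rose with MDA-MB-231 EVs and 8 fell and 1 rose with MCF10A EVs against PBS, whereas quantile scaling gave 4 lower and 5 higher with MDA-MB-231 EVs. Smooth muscle markers summed to 1583 to 1810 normalised reads over the 6 libraries, of which Smtn alone held 1261 to 1492. Their list includes the members Cnn1 and Actg2, so it is not separate from the contractile genes. Of 10 tested 1 fell (Des) and 0 rose with MDA-MB-231 EVs, while 1 fell (Des) and 1 rose (Lmod1) with MCF10A EVs. Skeletal and cardiac muscle markers summed to 1544 to 1848 normalised reads over the 6 libraries, nearly all of them from Acta1. Of 7 of these tested, 1 rose with either EV against PBS (Acta1) and 0 fell. Myod1, Myog, Myf5 and Myl1 of that list and the epithelial markers Epcam, Krt18, Krt5 and Esrp1 were at 0 in all libraries.

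Endothelial markers summed to 194 and 158 normalised reads in MDA-MB-231 EV cells, 345 and 296 in MCF10A EV cells, and 364 and 356 in PBS cells. Macrophage and leukocyte markers summed to 1059 and 993 in MDA-MB-231 EV cells, 1833 and 1779 in MCF10A EV cells, and 3142 and 3036 in PBS cells. Adipocyte markers summed to 427 to 459 in MDA-MB-231 EV cells, 524 to 538 in MCF10A EV cells, and 606 to 658 in PBS cells. Pericyte markers summed to 10387 and 10639 in MDA-MB-231 EV cells, 8862 and 9021 in MCF10A EV cells, and 9748 and 9720 in PBS cells, and Kcnj8 was at 0. Each of these sums came mostly from 1 gene, which mainly sets its level. In the order given, these were Cdh5, Cd14, Lipe and Pdgfrb, with means of 347, 2992, 510 and 8825 normalised reads in PBS cells. Pdgfrb is also on the fibroblast marker list. Of 7 endothelial markers tested against PBS, 1 rose and 1 fell with MDA-MB-231 EVs and 1 rose with MCF10A EVs, and of 4 macrophage and leukocyte markers 2 fell with MDA-MB-231 EVs and 1 with MCF10A EVs. Of 3 adipocyte markers 1 fell with either EV, and of 7 pericyte markers 1 rose with MDA-MB-231 EVs and 2 fell with MCF10A EVs. The pericyte marker that rose was Cspg4, with means of 1221.5 normalised reads in MDA-MB-231 EV cells and 895.2 in PBS cells. Pdgfrb was not called in that comparison (limma adjusted p = 0.0639). Epithelial markers summed to 28.5 and 37.2 normalised reads in MDA-MB-231 EV cells, 40.7 and 35.4 in MCF10A EV cells, and 44.6 and 48.7 in PBS cells, nearly all of them from Krt8. Of 2 epithelial markers tested, 1 rose with either EV against PBS (Cdh1). It was at 0 in PBS cells and at most 4.06 normalised reads in an EV library. The part of these markers in the contractile results was not tested.

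By likeness over the 6 libraries, measured as the root mean square difference of centred log2 values, the genes nearest to Acta2 among 10101 were Styk1 (0.0535), Eda2r (0.0562), Chchd4 (0.0635), Gadd45a (0.0726) and Tmem177 (0.0742). Eda2r, a receptor of the tumour necrosis factor family, had a log2 change of 0.42 with MDA-MB-231 EVs and 0.63 with MCF10A EVs against PBS. Candidates needed a mean of at least 5 CPM (reads per mega-read). Of the contractile genes above that level, Tagln2, Cnn2, Tpm1, Tpm2 and Cald1 were not among the 5 genes nearest to Acta2. Actg2, Tagln, Cnn1 and Myl9 lay below it and could not appear, so their absence says nothing. The genes nearest to Tagln were Slc25a22 (0.0277), Pop7 (0.0291), Trim7 (0.0294), Bpnt1 (0.0326) and Itpa (0.0339). With 6 libraries in 3 groups, many genes can share such a pattern.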

How the data were processed

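A stranded mRNA kit was used on RNA extracted with TRIzol, per the labels' protocols. The submitters' processing notes name TopHat2, edgeR and the human build hg19. For the mouse build, the counter, its strand setting and the annotation, nothing is given in the sources used here. The authors deposited 1 table of normalised signal, 20475 genes by 6 libraries, whose values are edgeR pseudo-counts. Inverting that adjustment returned whole reads for 122850 of 122850 values within a relative 1e-06 (largest difference 1.05e-07). Library totals were 22451173 to 29315530 reads, and 3 reads, the limit that a count of 0 allows, were 0.102 to 0.134 CPM (reads per mega-read). Intervals on reads cover counting error only.

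limma 3.58.1 in R 4.3.3 (lmFit, eBayes with trend) was run on log2(value + 1) for the 15025 genes that reached 1 normalised read in 2 or more libraries, with 1 mean per group and a Benjamini-Hochberg adjusted p under 0.05. All 10 members passed that filter. The tests were also run on simulated data. Alternatives were other pseudocounts, filters and scalings, no trend, edgeR 4.0.16 on the recovered reads (12352 genes), DESeq2 1.42.0, only the 4 libraries compared, a replicate block, and each library left out. Members and lists were chosen with earlier results of these data known. Named genes were the members and, from each other list, the called gene with the smallest p per comparison and genes called in all 3, up to 4. One gene that this rule names is counted in its list and not reported here by name. A few others are named to spell out a count, and were chosen after their values were seen. Promoters and exon lengths come from mouse annotation (GRCm38.p6) and are not the authors'.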

Additional observations from a re-analysis of the deposited data

How the results depend on the processing

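The rise of Acta2 with MCF10A EVs against PBS passed in all 12 alternatives and with each of the 6 libraries left out (log2 change 0.57 to 0.77 over the latter runs). The other comparisons of Acta2 lost their call without the trend in limma only (adjusted p = 0.0572 for MDA-MB-231 EVs against PBS and 0.154 for MDA-MB-231 EVs against MCF10A EVs). Without the trend, 3346, 2231 and 378 genes were called for MDA-MB-231 EVs against PBS, for MCF10A EVs against PBS and between the EVs (5231, 4764 and 2541 with it), and 1, 1 and 0 members. DESeq2 called 1515 genes between the EVs, and 2 members with MDA-MB-231 EVs and 1 with MCF10A EVs against PBS, where it gave Myl9 no adjusted p. Scaling to library totals called 5 members with MCF10A EVs against PBS. It also called 3979 genes higher and 1888 lower with MDA-MB-231 EVs against PBS (2688 and 2543 in the deposited scaling), and 1783 higher and 1106 lower between the EVs (1027 and 1514).

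With 1 library left out, 4018 to 5056, 3370 to 4897 and 1425 to 2257 genes and 2 to 5, 1 to 4 and 2 to 3 members were called in the same order. Signs turned only for changes that were not called. Cald1 with MDA-MB-231 EVs against PBS was 0.017 under library totals. Between the EVs, Actg2 was -0.028 with a pseudocount of 0.5. Tpm2 there was 0.014, 0.005, 0.04, 0.003 and 0.002 under quantile scaling, TMM, library totals, edgeR and DESeq2, and Cald1 was 0.025 and 0.027 under quantile scaling and library totals. With a library left out, Tagln2 with MDA-MB-231 EVs against PBS ran from -0.05 to 0.067, and between the EVs Actg2 ran from -0.849 to 0.88, Myl9 from -0.966 to 0.017, Tpm2 from -0.032 to 0.027 and Cald1 from -0.045 to 0.014. The cause was not tested.

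Same-numbered replicates did not deviate together (correlations of replicate differences 0.027, 0.018 and -0.011 over 10104 genes), so the number is only shared. With a replicate block 5187, 4746 and 2560 genes and 4, 4 and 2 members were called, with Tagln2 higher with MCF10A EVs (adjusted p = 0.0416). Groups of 2 limit every call, and few reads limit Actg2, Myl9, Cnn1 and Tagln.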
